A study of Homo sapiens with 24 samples.

Results

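LURAP1L, DHRS2 and UPP1 were followed across 2 human pancreas cell lines exposed to extracellular vesicles from pancreatic cancer cells. They are 3 of the 48162 genes in the deposited tables, and each matched 1 row by its symbol. They were picked on their rise in the HPDE line when vesicles were added, so their HPDE vesicle values are given as a description, with no test. Ranked by the log2 rise over residual medium in HPDE, LURAP1L, DHRS2 and UPP1 held places 1, 2 and 3 with PPCL-68 vesicles and places 1, 47 and 20 with PANC-1 vesicles. The HPNE line did not enter that choice, and the same comparisons are tested there.

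hTERT-HPNE (HPNE) is a pancreas line immortalised with telomerase, and HPDE-H6c7 (HPDE) is a pancreatic duct epithelial line immortalised with papillomavirus oncogenes. Both were grown in keratinocyte serum-free medium and then kept for 24 h in 1 of 4 ways. The untreated group received fresh serum-free medium, and the residual group received leftover medium from the vesicle preparation, as a negative control. The other groups received 1e10 vesicles per well from PANC-1, a pancreatic ductal adenocarcinoma line, or from PPCL-68 cells. Each of the 8 groups held 3 libraries, which the series calls biological triplicates. Within a line, both vesicle groups share the same residual and untreated libraries.

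Uridine phosphorylase, encoded by UPP1, cleaves uridine with phosphate into uracil and ribose 1-phosphate, so that a nucleoside can supply both a base and a sugar phosphate. DHRS2 is an NADPH-dependent short-chain dehydrogenase/reductase that acts on dicarbonyl compounds, and its processed form has been described as binding the ubiquitin ligase MDM2. LURAP1L is a little-studied relative of LURAP1, an adaptor that links MRCK kinases to the myosin MYO18A in the assembly of contractile actomyosin.

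In the deposited coordinates (hg19, per the submitters' processing notes) all 3 are protein-coding genes on the plus strand. LURAP1L (ENSG00000153714) lies on chr9:12775020-12822130, DHRS2 (ENSG00000100867) on chr14:24099324-24114848, and UPP1 (ENSG00000183696) on chr7:48128225-48148330. The 250 bases before the annotated starts are shown because the members moved with the same treatments. They come from RefSeq on GRCh38.p14, on the plus strand, and capitals mark the motif matches. The windows are chr9:12774770-12775019 for LURAP1L, chr14:23629865-23630114 for DHRS2, and chr7:48088454-48088703 and chr7:48089004-48089253 for UPP1, whose first window belongs to another annotated start than the second.
LURAP1L: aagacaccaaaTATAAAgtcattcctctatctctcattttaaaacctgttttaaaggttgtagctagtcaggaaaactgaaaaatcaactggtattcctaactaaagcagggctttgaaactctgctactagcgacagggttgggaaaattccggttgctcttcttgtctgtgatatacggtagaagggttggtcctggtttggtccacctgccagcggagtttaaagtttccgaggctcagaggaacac
DHRS2: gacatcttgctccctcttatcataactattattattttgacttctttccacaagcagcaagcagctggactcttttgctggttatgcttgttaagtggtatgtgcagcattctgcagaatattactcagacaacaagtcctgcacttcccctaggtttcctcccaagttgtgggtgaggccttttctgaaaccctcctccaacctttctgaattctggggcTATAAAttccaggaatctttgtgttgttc
UPP1 window 1: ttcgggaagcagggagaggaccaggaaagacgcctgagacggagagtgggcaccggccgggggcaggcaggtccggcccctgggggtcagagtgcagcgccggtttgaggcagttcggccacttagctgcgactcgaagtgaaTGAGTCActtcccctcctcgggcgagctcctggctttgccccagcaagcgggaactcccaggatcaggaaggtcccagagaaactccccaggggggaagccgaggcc
UPP1 window 2: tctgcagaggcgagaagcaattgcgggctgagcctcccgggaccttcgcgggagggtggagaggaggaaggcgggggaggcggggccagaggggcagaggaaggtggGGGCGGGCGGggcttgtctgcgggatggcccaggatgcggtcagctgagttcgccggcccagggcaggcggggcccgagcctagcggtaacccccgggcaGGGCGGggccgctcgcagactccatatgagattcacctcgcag

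The windows share no match to any searched motif across the 3 genes. Searches on both strands covered the general promoter motifs TATAAA (the TATA box), GGGCGG (the GC box), CCAAT (the site of nuclear factor Y) and CACGTG (the E-box). Of the inducible elements, TGANTCA (the AP-1 site), TGACGTCA (the cAMP response element), TGACGTGG (the XBP1 element core), TGATGNAA (the ATF4-C/EBP composite) and TGACNNNGC (the antioxidant response element core) were searched. DHRS2 has TATAAA from 29 to 24 bases before its start, and LURAP1L has it from 239 to 234 bases before. UPP1 window 1 holds TGAGTCA from 107 to 101 bases before the start, and window 2 holds 3 GGGCGG matches, 2 of which overlap. Of all 35116 windows of this length, 10.7% hold TATAAA, 6.57% hold TGANTCA and 42.6% hold GGGCGG. TGATGNAA is in 3.14% of windows and in none of the members', which says only that these letters are not in these 250 bases. The LURAP1L and DHRS2 windows have a GC content of 42.8% and 43.2%, and the UPP1 windows 66.0% and 71.6%, around a median of 58.0% over all windows.

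Between 29209142 and 46490312 reads per library were assigned to genes. The 2 lines differ widely in lineage markers. In HPDE, KRT19 was at 317 to 1140 FPKM (fragments scaled to gene length and library size) and EPCAM at 148 to 192. HPNE libraries had at most 0.905 FPKM of KRT19 and 0.162 of EPCAM, with COL1A1 at 1411 to 4337, so the duct markers named here are near 0 in that line. In each HPNE group 1 library lay apart from the other 2 across all genes: its mean distance to them was 2.05 to 3.31 times their distance from each other (1.08 to 1.24 times in HPDE). These were untreated replicate 3, residual replicate 3, PANC-1 vesicle replicate 1 and PPCL-68 vesicle replicate 1, and HPNE results are given with and without them where that matters. In bulk RNA, a change in the share of cells that express a gene and a change in RNA per cell cannot be told apart.

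**Figure D1:**
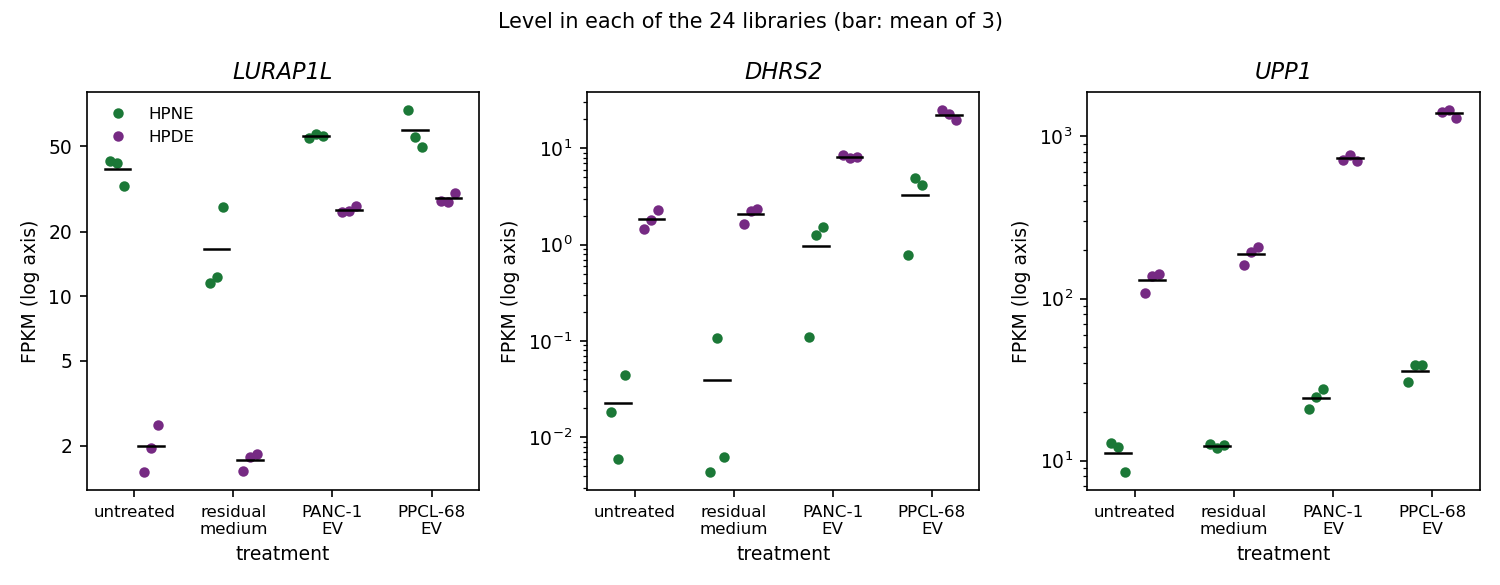
FPKM of LURAP1L, DHRS2 and UPP1 in all 24 libraries on a log axis, by treatment, with HPNE in green and HPDE in purple; points are libraries and black bars the means of 3. In both lines and for every member, all vesicle libraries lie above all libraries of the 2 control groups, and UPP1 is higher in every HPDE library than in any HPNE library.

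UPP1 rose with both kinds of vesicle in HPNE, where nothing had been chosen on its values. The untreated HPNE libraries had 12.8, 12.2 and 8.53 FPKM of UPP1, and the residual libraries 12.6, 11.996 and 12.5. With PANC-1 vesicles the level was 20.9, 24.7 and 27.5 FPKM, and with PPCL-68 vesicles 30.5, 38.7 and 38.6 FPKM. The vesicle libraries did not overlap either control group, and every PPCL-68 library was above every PANC-1 library. Against residual medium the difference on the log2(FPKM + 1) scale was 0.92 (SE 0.15, limma adjusted p = 0.00217) with PANC-1 vesicles and 1.46 (SE 0.15, limma adjusted p = 7.06e-05) with PPCL-68 vesicles. In mean FPKM these are ratios of 1.97 and 2.91.

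Measured from untreated HPNE cells, UPP1 was 1.07 higher on the same log2 scale with PANC-1 vesicles (limma adjusted p = 0.00100) and 1.61 higher with PPCL-68 vesicles (limma adjusted p = 2.06e-05). Residual medium by itself left UPP1 at a log2 difference of 0.15 (SE 0.15, limma adjusted p = 0.416) from untreated cells. The direct difference between the vesicle sources, PANC-1 minus PPCL-68, was -0.54 (SE 0.15) and missed the threshold (limma adjusted p = 0.0579). Without the 4 HPNE libraries that lay apart it was -0.55 (limma adjusted p = 0.000143). Removing the farthest library of each group narrows the spread by construction.

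In HPDE, UPP1 was already an abundant transcript and became one of the most abundant. Untreated cells had 108, 138 and 142 FPKM, and cells in residual medium 162, 193 and 207 FPKM. The values were 714, 771 and 710 FPKM with PANC-1 vesicles and 1413, 1455 and 1304 FPKM with PPCL-68 vesicles. All 4 groups were separate from one another, in that order. By FPKM, UPP1 stood at places 336 to 507 among all genes in untreated libraries, 230 to 312 in residual medium, 29 to 33 with PANC-1 vesicles and 12 to 13 with PPCL-68 vesicles. The ratio of means to residual medium was 3.91 with PANC-1 and 7.43 with PPCL-68 vesicles.

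UPP1 was the member that differed between the 2 HPDE control groups. These residual libraries also entered the choice of members, as the reference of the vesicle comparisons. The log2 difference of UPP1 between residual medium and untreated cells was 0.53 (SE 0.10, limma adjusted p = 0.00220), a ratio of means of 1.45, and the 2 groups did not overlap. For LURAP1L the same difference was -0.13 (limma adjusted p = 0.351) and for DHRS2 0.11 (limma adjusted p = 0.530), with overlapping groups. Of all 12223 genes tested in HPDE, 9.93% passed the threshold as higher in residual medium and 18.3% were higher without overlap, against 1 of the 3 members on either count.

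DHRS2 went from nearly no reads to clear expression in HPNE cells given vesicles, but unevenly between replicates. Untreated HPNE libraries held 3, 1 and 9 DHRS2 reads, and residual libraries 1, 19 and 1. PANC-1 vesicle libraries held 22, 309 and 291 reads, and PPCL-68 vesicle libraries 159, 784 and 818. As levels, the PANC-1 libraries were at 0.111, 1.25 and 1.53 FPKM and the PPCL-68 libraries at 0.786, 4.93 and 4.21 FPKM. The lowest PANC-1 library stood only just above the highest residual library (0.111 against 0.108 FPKM). In each vesicle group the low value was replicate 1, the library that also lay apart across all genes.

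DHRS2 reached the minimum mean level for testing in HPNE only through its vesicle libraries, so its p-values there are read from the fit with no minimum level, which DHRS2 enters whatever its level. In that fit, with PPCL-68 vesicles, the log2 difference was 1.87 from residual medium (limma adjusted p = 0.0178) and 1.90 from untreated cells (limma adjusted p = 0.0132). With the minimum level kept, the limma adjusted p was 0.00453 and 0.00343. With PANC-1 vesicles the differences were 0.83 (limma adjusted p = 0.329) and 0.85 (limma adjusted p = 0.302), and neither passed there or with the minimum level kept (0.149 and 0.151). Adding 1 to FPKM understates changes of a gene this low. With the minimum level kept and 0.1 in place of 1, the PANC-1 differences were 2.55 (limma adjusted p = 0.0427) and 2.67 (limma adjusted p = 0.0402), and without the 4 libraries apart they were 1.18 (limma adjusted p = 2.10e-05) and 1.24 (limma adjusted p = 1.39e-05) on the usual scale. Leaving out the farthest library of each group narrows the spread by construction.

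The DHRS2 difference between the vesicle sources in HPNE, PANC-1 minus PPCL-68, was -1.04 on the log2 scale with overlapping groups. It did not pass with the minimum level kept (limma adjusted p = 0.152), a fit that DHRS2 entered only through its vesicle libraries.

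HPDE cells expressed DHRS2 at a low level before treatment. Untreated libraries had 1.46, 1.79 and 2.29 FPKM and residual libraries 1.65, 2.22 and 2.32 FPKM. With PANC-1 vesicles the values were 8.59, 7.91 and 8.12 FPKM, and with PPCL-68 vesicles 24.9, 22.7 and 19.5 FPKM. The control groups overlapped each other, and the vesicle groups overlapped neither the controls nor one another. The ratios to residual medium were 3.98 and 10.8, and the PANC-1 group was at 0.367 of the PPCL-68 group, the lowest such ratio of the 3 members.

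LURAP1L differed from the other 2 members in how much the control medium mattered in HPNE. In HPNE the untreated libraries had 42.7, 41.7 and 32.5 FPKM, and residual medium brought the gene to 11.5, 12.2 and 25.9 FPKM. PANC-1 vesicle libraries were at 54.6, 57.2 and 56.1 FPKM, and PPCL-68 vesicle libraries at 73.8, 55.3 and 49.6 FPKM. The residual group was below all others with no overlap, and the 2 vesicle groups overlapped each other. The residual library at 25.9 FPKM and the PPCL-68 library at 73.8 FPKM are among the 4 that lay apart.

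LURAP1L fell in residual medium relative to untreated HPNE cells by 1.27 on the log2 scale (SE 0.25, limma adjusted p = 0.00314), to 0.424 of the mean FPKM. Against that low control it was 1.79 higher with PANC-1 vesicles (SE 0.25, limma adjusted p = 0.00108) and 1.86 higher with PPCL-68 vesicles (SE 0.25, limma adjusted p = 0.000360), or 3.38 and 3.60 times the mean FPKM. Against untreated cells the differences were 0.52 (limma adjusted p = 0.161) and 0.59 (limma adjusted p = 0.0814), which did not pass, although the libraries did not overlap. They passed without the 4 libraries apart, at the smaller differences of 0.41 (limma adjusted p = 0.000186) and 0.31 (limma adjusted p = 0.00105). Taking out the farthest library of each group narrows the spread by construction. They also passed when only the 6 libraries compared were fitted (limma adjusted p = 0.0223 and 0.0273). The LURAP1L difference between the vesicle sources was -0.07 (limma adjusted p = 0.904).

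In HPDE, LURAP1L began at a low level and showed the largest rise of any gene tested, with either kind of vesicle, over residual medium. Untreated libraries had 1.51, 1.96 and 2.50 FPKM and residual libraries 1.52, 1.77 and 1.84 FPKM. They were at 24.6, 24.8 and 26.2 FPKM with PANC-1 vesicles and at 27.9, 27.5 and 30.3 FPKM with PPCL-68 vesicles. The control groups overlapped, and both vesicle groups were far above them. The ratios to residual medium were 14.7 and 16.7, and the PANC-1 group was at 0.882 of the PPCL-68 group.

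The effect of residual medium on LURAP1L differed between the lines when that difference was itself tested, in a fit of all 24 libraries added after the data had been seen. The HPDE residual libraries in this fit also entered the choice of members. The HPNE change minus the HPDE change was -1.14 on the log2 scale (SE 0.29, limma adjusted p = 0.00499). For DHRS2 it was -0.09 (limma adjusted p = 0.890) and for UPP1 -0.38 (limma adjusted p = 0.125). Across the 12377 genes of that fit, 38.1% passed the threshold.

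**Figure D2:**
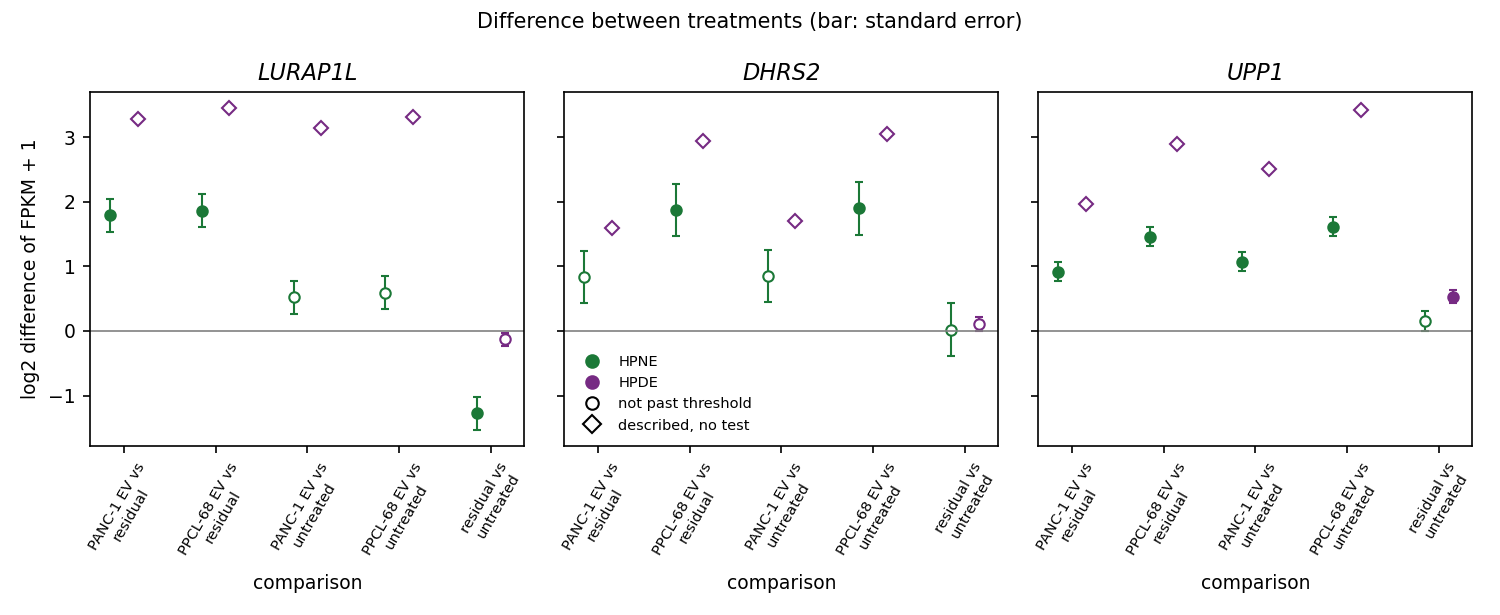
Difference between treatments on the log2(FPKM + 1) scale for each member and 5 comparisons, HPNE in green and HPDE in purple. Circles with standard errors were tested, filled where the limma adjusted p is under 0.05, and open diamonds are HPDE vesicle values that chose the members and have no test; LURAP1L in HPNE stands at -1.27 for residual medium, and UPP1 is filled in all 4 HPNE vesicle comparisons.

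DHRS2 is left out of the HPNE counts that follow, since it entered the test only through the libraries where it was high. LURAP1L and UPP1 both passed the threshold as higher in HPNE against residual medium, 2 of 2 with PANC-1 vesicles, where 13.9% of the 11503 genes tested did so, and 2 of 2 with PPCL-68 vesicles, where 20.3% did. Against untreated cells 1 of 2, UPP1, passed with PANC-1 vesicles (9.61% of genes) and with PPCL-68 vesicles (18.7%). Both genes were higher without overlap in each of these comparisons, as were 23.4%, 26.3%, 18.1% and 25.8% of genes in the same order. Between residual and untreated HPNE cells 1 of 2, LURAP1L, was called lower (25.2% of genes) and was lower without overlap (31.8% of genes). Between the vesicle sources neither passed, where 2.25% of genes were called lower with PANC-1 and 15.2% were lower without overlap, UPP1 among them. Ranked by the size of the rise over residual medium in HPNE, LURAP1L was at place 26 with PANC-1 and 36 with PPCL-68 vesicles, DHRS2 at 340 and 34, and UPP1 at 271 and 98.

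The HPDE values that chose the members place LURAP1L, DHRS2 and UPP1 at places 1, 2 and 3 among the genes that rose with PPCL-68 vesicles over residual medium, at log2 differences of 3.45, 2.93 and 2.89. The gene just outside was SPRR2D at 2.81, followed by MAP1LC3B at 2.75. With PANC-1 vesicles LURAP1L was at place 1 (3.27), UPP1 at 20 (1.97) and DHRS2 at 47 (1.59), and the genes at places 2 to 4 were DDIT3 (2.67), GDF15 (2.65) and VNN3 (2.61). In HPDE 28.2% of genes were called higher with PANC-1 and 31.3% with PPCL-68 vesicles over residual medium, and 29.9% and 32.2% were higher without overlap, as all 3 members were. Against untreated HPDE cells 29.3% and 32.3% of genes were higher without overlap, again with all 3 members, and all 3 were lower with PANC-1 than with PPCL-68 vesicles without overlap, as were 27.7% of genes. The HPDE vesicle groups also differed in the sum of 8 duct markers, most of which comes from keratins. The summed FPKM was 2786 to 3031 in untreated and 3153 to 3529 in residual libraries, against 1563 to 1825 with PANC-1 and 1446 to 1460 with PPCL-68 vesicles. Over all HPDE libraries KRT19 ranged from 317 to 1140, KRT7 from 587 to 1161, KRT8 from 158 to 674 and KRT18 from 119 to 299. EPCAM stayed within 148 to 192 and CDH1 within 44.9 to 56.6, and SOX9 (12.6 to 31.5) and MUC1 (0.313 to 0.778) add little to the sum. The part of that shift in the members' values was not tested.

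Set in order of mean level across the 8 groups, the members differ in which line leads. UPP1 was higher in untreated HPDE (129 ± 18.6 FPKM, SD, n = 3) than in any HPNE group, the highest of which was at 36.0 ± 4.71 with PPCL-68 vesicles. The UPP1 neighbours in this order overlapped only at the bottom, between untreated (11.2 ± 2.30) and residual HPNE cells (12.4 ± 0.336). LURAP1L had the reverse order at rest: untreated HPNE cells, at 39.0 ± 5.62 FPKM, were above HPDE cells even with PPCL-68 vesicles, at 28.6 ± 1.53. The LURAP1L libraries of HPNE in residual medium overlapped those of HPDE with PANC-1 vesicles, and the 2 HPDE control groups and the 2 HPNE vesicle groups overlapped each other. For DHRS2, the 2 control groups overlapped within each line, and HPNE cells with PANC-1 vesicles (0.962 ± 0.750) overlapped untreated HPDE cells (1.85 ± 0.421). HPNE cells with PPCL-68 vesicles (3.31 ± 2.21) overlapped HPDE cells in residual medium (2.06 ± 0.363).

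Of the closest relatives, DHRS4 and DHRS4L2 could be tested and did not rise, and LURAP1 and UPP2 were too low to test. LURAP1 stayed at or below 1.03 FPKM in every library, and its mean was lowest with PPCL-68 vesicles in both lines (0.256 ± 0.0693 in HPNE, 0.204 ± 0.0654 in HPDE). UPP2, the other uridine phosphorylase, had at most 5 reads in any library. DHRS4, a carbonyl reductase near DHRS2 on chromosome 14, was at group means of 6.18 to 7.71 FPKM, with log2 differences from residual medium between -0.02 and -0.15 and none past the threshold. DHRS4L2 was lower in HPDE, by -0.22 with PANC-1 (limma adjusted p = 0.0453) and -0.29 with PPCL-68 vesicles (limma adjusted p = 0.0114). DHRS4 and DHRS4L2 are near-identical copies, so reads may have been split between them.

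Genes next to the members were read from the deposited coordinates. C7orf57 ends 27.3 kb before UPP1 on the same strand. In HPDE it was at 0.474 ± 0.102 FPKM untreated and 0.462 ± 0.0184 in residual medium. With PANC-1 vesicles it was at 1.97 ± 0.424 FPKM (log2 difference 1.01 from residual medium) and with PPCL-68 vesicles at 2.43 ± 0.164 (1.23). C7orf57 reached the minimum mean level for testing in HPDE only through its vesicle libraries, so these values are a description with no test. FIGNL1, the nearest expressed gene on the other side and 2364 kb away, was lower than in residual medium in HPDE (-0.22 and -0.59, limma adjusted p = 0.00483 and 5.14e-07) and in HPNE (-0.65 and -0.91, limma adjusted p = 0.0397 and 0.00525). In HPNE the residual level was the highest, at 7.13 ± 2.45 FPKM. Both vesicle means there, 4.03 ± 0.471 with PANC-1 and 3.19 ± 0.309 with PPCL-68, were above that of untreated cells (2.71 ± 0.512). RP11-3L8.3 overlaps LURAP1L on the opposite strand. In HPDE it went from 0.841 ± 0.345 FPKM in residual medium to 2.24 ± 0.519 with PANC-1 and 1.93 ± 0.321 with PPCL-68 vesicles. RP11-3L8.3 also reached the minimum mean level in HPDE only through its vesicle libraries, so no test is given. It had at most 73 reads, and since the library kit keeps no strand, its reads and those of LURAP1L cannot be told apart where they overlap. C9orf123, MPDZ, AP1G2 and DHRS4-AS1, the other expressed neighbours, had no difference from residual medium past the threshold in either line.

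Most other genes that handle pyrimidine nucleosides did not rise where UPP1 did. Of the other salvage genes tested in HPNE with PPCL-68 vesicles against residual medium, 1 of 11 rose and 5 fell, with a median log2 difference of -0.15 where the median of all genes was 0.0026. Of all genes tested there, 20.3% were called higher and 19.7% lower. The salvage gene that rose was TYMP (0.74, limma adjusted p = 0.00430), the phosphorylase that cleaves thymidine. TK1, the thymidine kinase of dividing cells, fell by 2.28 (limma adjusted p = 0.00361), and CDA, which deaminates cytidine, fell by 0.99 (limma adjusted p = 0.00361). Against untreated HPNE cells none of these 3 passed: TYMP was at 0.24 (limma adjusted p = 0.253), TK1 at -0.56 (limma adjusted p = 0.360) and CDA at 0.13 (limma adjusted p = 0.637). In HPDE 3 of 12 rose, a share near the 31.3% of all genes, and 8 fell, where 36.4% of all genes did (median -0.23, all genes -0.03). Among them were TK2, the mitochondrial thymidine kinase, rising by 0.63 (limma adjusted p = 6.95e-06) and TK1 falling by 1.28 (limma adjusted p = 5.70e-10). With PANC-1 vesicles 1 rose and 2 fell of 11 in HPNE, and 4 rose and 6 fell of 12 in HPDE. Of all genes, 13.9% and 28.2% were called higher in the 2 lines, and 10.3% and 35.1% lower.

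Genes for uridine transport, for pyrimidine synthesis and for use of the sugar phosphate moved in different ways. SLC29A1, the equilibrative transporter that carries uridine across the membrane, was lower with PPCL-68 vesicles in HPNE (-1.42, limma adjusted p = 0.0166) and in HPDE (-0.75, limma adjusted p = 1.97e-09), and at -0.40 against untreated HPNE cells (limma adjusted p = 0.442). De novo synthesis genes fell in 1 of 5 cases in HPNE, a share near the 19.7% of all genes, and in 4 of 5 in HPDE, where 36.4% of all genes fell. CTPS1, the CTP synthase, fell in HPDE (-0.82, limma adjusted p = 1.62e-10) and was at -0.22 in HPNE (limma adjusted p = 0.656). It was higher with PPCL-68 vesicles than in untreated HPNE cells (1.35, limma adjusted p = 0.0111), having risen by 1.57 in residual medium (limma adjusted p = 0.00618). PGM1 and PGM2, the phosphoglucomutases of which PGM2 also acts on ribose 1-phosphate, fell in HPNE (-1.22 and -0.66, limma adjusted p = 0.000748 and 7.41e-05). Against untreated HPNE cells PGM1 was also lower (-0.71, limma adjusted p = 0.0118), but PGM2 was higher (0.56, limma adjusted p = 0.000117), having risen by 1.23 in residual medium (limma adjusted p = 1.46e-06). In HPDE they were at 0.07 and -0.08 (limma adjusted p = 0.185 and 0.160). Of the nucleotidases and the purine phosphorylase PNP, 2 of 7 rose and none fell in HPNE with PPCL-68 vesicles, and 3 of 6 rose and 2 fell in HPDE. Of all genes, 20.3% and 31.3% were called higher in HPNE and HPDE, and 19.7% and 36.4% lower. NT5C2 rose in both lines (0.40, limma adjusted p = 0.00165, and 0.45, limma adjusted p = 2.09e-06), as did NT5C3A (0.45, limma adjusted p = 0.00987, and 0.18, limma adjusted p = 0.00516), and NT5E rose in HPDE (0.33, limma adjusted p = 8.13e-06).

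The counts of these lists in HPNE differed with the control used. Between residual and untreated HPNE cells 5 of 11 salvage genes rose and 2 fell, and 3 of 5 de novo genes rose, where 18.7% of all genes rose and 25.2% fell. With PPCL-68 vesicles against untreated HPNE cells, 1 of 11 salvage genes rose and none fell, where 18.7% of all genes rose and 23.8% fell. In HPDE, 4 of 12 salvage genes rose and none fell in residual medium against untreated cells (9.93% of all genes rose and 10.1% fell). With PPCL-68 vesicles against untreated HPDE cells, 3 salvage genes rose and 6 fell, beside 30.1% and 36.1% of all genes.

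**Figure D3:**
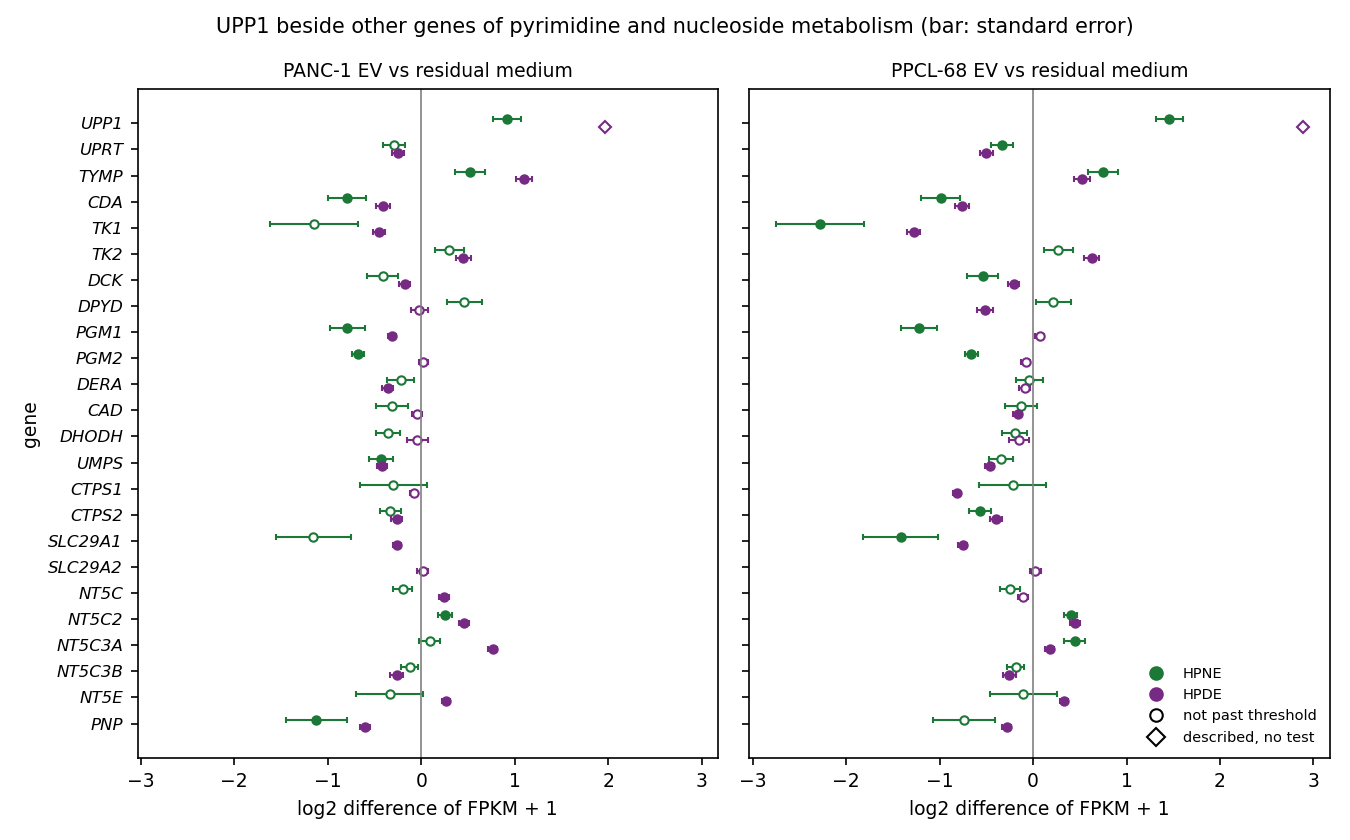
Log2 difference of FPKM + 1 from residual medium with PANC-1 (left) and PPCL-68 vesicles (right) for UPP1 and, from 5 pyrimidine and nucleoside lists, the up to 4 genes per list and line with the smallest adjusted p with PPCL-68 vesicles, HPNE in green and HPDE in purple, with standard errors. Filled circles have a limma adjusted p under 0.05 and the diamond is the UPP1 value that chose the members, so its place in HPDE was set by that choice. Among these genes with PPCL-68 vesicles, UPP1 is farthest to the right in HPNE, and TK1 is farthest to the left in both lines.

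The relatives of DHRS2 were read beside all genes tested, of which 20.3% were called higher and 19.7% lower in HPNE and 31.3% and 36.4% in HPDE. With PPCL-68 vesicles against residual medium, 1 of 13 DHRS and carbonyl reductase genes rose and 4 fell in HPNE (median -0.25), and 1 of 16 rose and 8 fell in HPDE (median -0.18). CBR1 and CBR3, NADPH-dependent carbonyl reductases, fell in both lines. CBR1 fell by 0.54 in HPNE (limma adjusted p = 0.000384) and by 1.15 in HPDE (limma adjusted p = 1.44e-10), and CBR3 fell by 1.30 (limma adjusted p = 0.000308) and by 0.65 (limma adjusted p = 9.13e-05). Of the retinol and 17-beta-hydroxysteroid dehydrogenases, 1 of 15 rose and 3 fell in HPNE and 2 of 13 rose and 6 fell in HPDE. HSD17B7, which also serves cholesterol synthesis, fell by 1.28 and 0.81 (limma adjusted p = 0.000172 and 2.68e-08), and HSD17B14 rose in HPNE by 0.96 (limma adjusted p = 0.000722). Against untreated HPNE cells HSD17B14 was at -0.15 (limma adjusted p = 0.440), having fallen in residual medium (-1.11, limma adjusted p = 0.000388), while CBR1, CBR3 and HSD17B7 were lower there too (-0.64, -1.36 and -1.31, limma adjusted p = 9.81e-05, 0.000156 and 9.72e-05).

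MDM2, its relative MDM4 and CDKN1A, which encodes the cell cycle inhibitor p21, were listed because of the described binding of DHRS2 to MDM2. With PPCL-68 vesicles against residual medium, CDKN1A rose by 0.33 in HPNE (limma adjusted p = 0.0266) and by 0.81 in HPDE (limma adjusted p = 9.49e-10), and MDM4 rose by 0.44 (limma adjusted p = 0.0169) and 0.64 (limma adjusted p = 1.75e-05). MDM2 was at 0.31 in HPNE (limma adjusted p = 0.0703) and rose by 0.42 in HPDE (limma adjusted p = 5.85e-06). Of all genes tested, 20.3% were called higher in HPNE and 31.3% in HPDE. All 3 were lower in residual medium than in untreated HPNE cells, where 25.2% of all genes were called lower. None of the 3 passed with PPCL-68 vesicles against untreated HPNE cells, where 18.7% of all genes were called higher and 23.8% lower.

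For LURAP1L, the listed partners are the MRCK kinases, MYO18A and the actomyosin genes. In HPNE 1 of 16 rose and 7 fell with PPCL-68 vesicles against residual medium (median -0.26), and in HPDE 5 of 17 rose and 10 fell (median -0.26). MYH10, a non-muscle myosin heavy chain, fell by 1.18 in HPNE (limma adjusted p = 9.83e-05) and by 0.59 in HPDE (limma adjusted p = 1.72e-07). MYO18A itself fell by 0.48 in HPNE (limma adjusted p = 0.00484), and the light chain gene MYL9 fell by 1.12 in HPDE (limma adjusted p = 3.12e-08). LIMK1, a kinase that phosphorylates cofilin, rose in HPNE by 0.43 (limma adjusted p = 0.00248). Against untreated HPNE cells LIMK1 was at 0.10 (limma adjusted p = 0.354), and MYH10 and MYO18A were both lower (-0.79 each, limma adjusted p = 0.000690 and 0.000208). Across all lists without the members, 8 of 76 genes rose and 23 fell in HPNE and 17 of 79 rose and 40 fell in HPDE with PPCL-68 vesicles, beside 20.3% and 31.3% of all genes called higher and 19.7% and 36.4% called lower.

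The patterns of the members over the 12 libraries of a line were compared with those of all other tested genes by Pearson r of log2(FPKM + 1). The points share libraries and treatment groups, so r is a description. In HPNE the genes most like LURAP1L were BEST1, GDF15, ACVR1, XPOT and SMOX (r from 0.976 to 0.980). GDF15, a stress-induced cytokine of the TGF-beta family, was at 31.1 ± 8.87 FPKM untreated, 9.33 ± 3.55 in residual medium, 53.9 ± 4.996 with PANC-1 and 47.8 ± 14.5 with PPCL-68 vesicles, a dip and rise like that of LURAP1L. Closest to UPP1 in HPNE were RALA, PPP1R15A, HSPA9, PPP1R15B and PLRG1 (0.977 to 0.988). PPP1R15A and PPP1R15B direct the dephosphorylation of the initiation factor eIF2-alpha, and PPP1R15A went from 55.4 ± 5.25 FPKM in residual medium to 198 ± 48.8 and 308 ± 24.3. Closest to DHRS2 were OAS2, SCN9A, NUS1P1, GSTO2 and ZNFX1 (0.965 to 0.976), and OAS2, an interferon-induced enzyme, had the same uneven replicates (1.63 ± 0.842 and 2.73 ± 1.40 FPKM with the 2 kinds of vesicle).

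In HPDE the genes most like LURAP1L were CBS, GSE1, SESN2, RP11-214C8.5 and ZNF550 (0.995 to 0.996), those most like DHRS2 were RAB21, SQSTM1, ODC1, RPS6KA2 and RIOK3 (0.992 to 0.995), and those most like UPP1 were EIF5A2, LAMB3, LARP1B, ASB1 and CSNK1A1 (0.992 to 0.995). SESN2, a stress-responsive sestrin, was at 13.1 ± 0.453 FPKM in residual medium, 57.7 ± 1.49 with PANC-1 and 59.6 ± 1.96 with PPCL-68 vesicles. SQSTM1, the autophagy receptor p62, went from 67.0 ± 3.54 to 178 ± 8.88 and 344 ± 12.2. Of the 100 genes most like a member in each line, 12 were shared between the lines for LURAP1L, among them ATF4, DDIT3, TRIB3 and GDF15, and 7 for UPP1, among them XBP1 and PPP1R15A, and 6 for DHRS2. These examples were picked after their names were seen, and the other shared genes are not named. The lists were drawn from 11502 genes compared in HPNE and 12222 in HPDE. How many genes such lists share for genes other than the members was not counted. Between the members themselves, r in HPNE was 0.51 for LURAP1L with DHRS2, 0.66 for LURAP1L with UPP1 and 0.89 for DHRS2 with UPP1. In HPDE these were 0.93, 0.96 and 0.98, but the members were picked for rising with vesicles in those libraries. High HPDE values were thus set by the choice and are not a result. Among the 12222 genes compared in HPDE, DHRS2 was at place 647 and UPP1 at place 287 in likeness to LURAP1L.

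**Figure D4:**
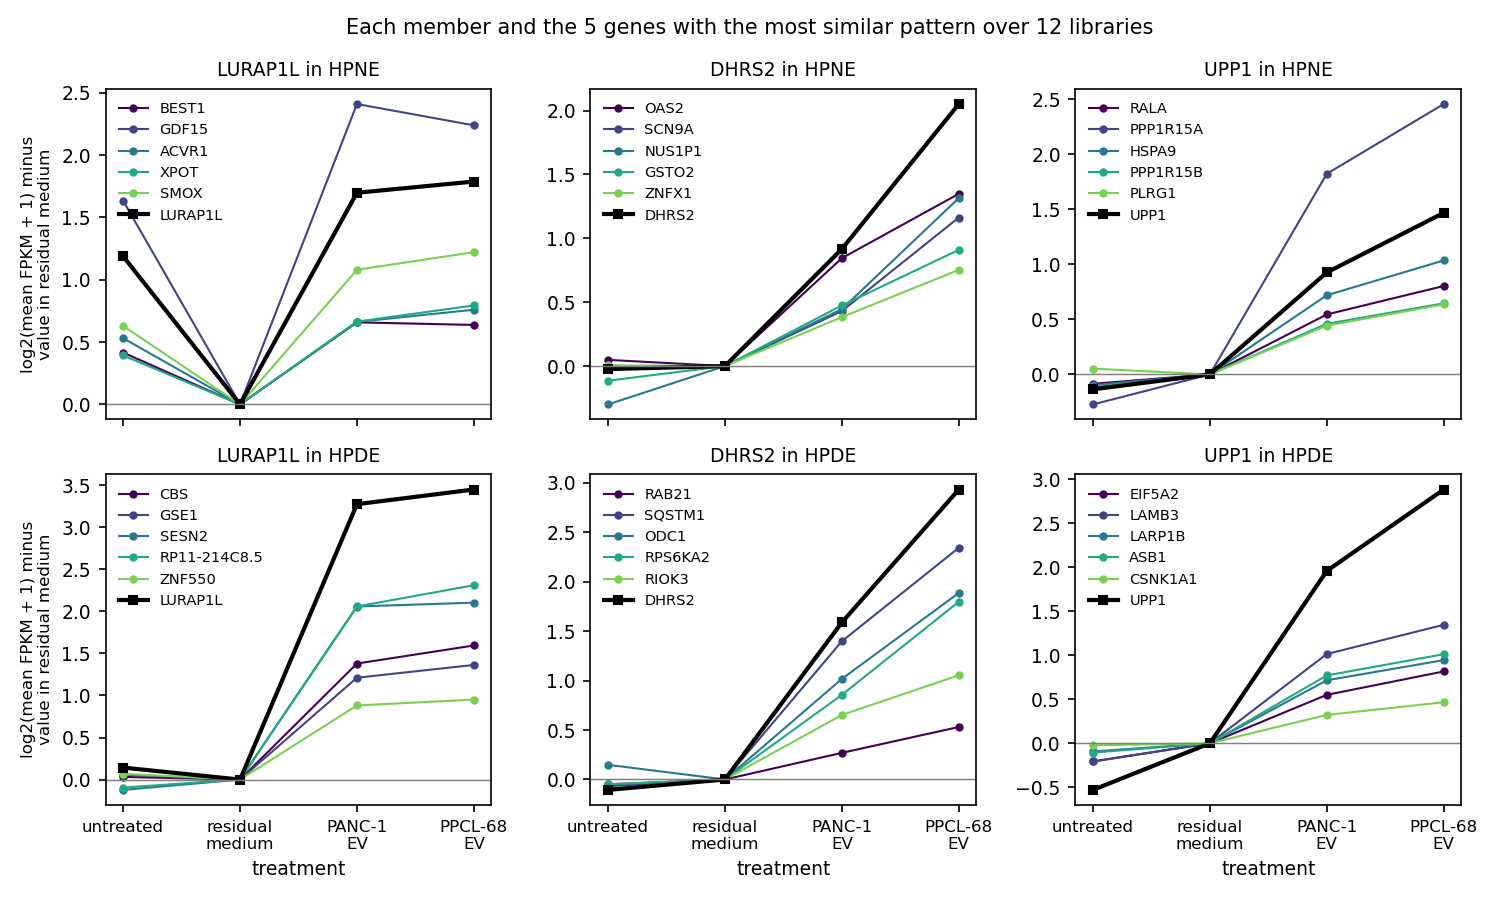
Group values of each member (black squares) and of the 5 genes with the highest Pearson r over 12 libraries (coloured circles), as log2(mean FPKM + 1) minus the value in residual medium, HPNE above and HPDE below. LURAP1L and its nearest genes in HPNE dip in residual medium, while DHRS2 and UPP1 and theirs are higher with PPCL-68 than with PANC-1 vesicles.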

How the data were processed

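RNA-seq was measured in 24 libraries of 2 cell lines. The authors deposited 1 table of FPKM per library, with gene length, symbol and position, per the file headers. The submitters' processing notes name CASAVA, STAR, HTSeq, DESeq2 and the build hg19, without roles or versions, and the kit was non-directional per the labels' protocols. In every library 100% of the deposited FPKM values came out as whole reads (within 0.05 of a read), so depth was recovered. The FPKM values were tested as log2(FPKM + 1) with limma 3.58.1 (lmFit and eBayes with trend, two-sided, Benjamini-Hochberg over all genes with a mean of at least 1 FPKM over the 12 libraries of a line) in R 4.3.3, with the 4 groups of a line in 1 fit and a threshold of 0.05. The test was also run on simulated counts. These had the same set spread for every gene and no library apart, so they do not cover the spread seen in HPNE.

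The members, gene lists and tests were chosen with earlier results of these data known. The text names the members, their paralogs, up to 4 listed genes per list and line with the smallest adjusted p with PPCL-68 vesicles against residual medium, the 5 genes most like each member, and the overlapping and nearest expressed genes. Of 106 listed genes 105 were matched, and DHRS4L1 was not analysed here. Values of 1 listed gene are not reported here. Replicate numbers come from the titles. Libraries of the same number deviated together only between the HPNE vesicle groups (r = 0.57, 0.29 and 0.50), where a block on the number changed no call of the members. Alternatives were another pseudocount, no filter, size factors, fits of 6 libraries, voom on recovered reads, the replicate block and leaving out libraries.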

Additional observations from a re-analysis of the deposited data

Results flagged for a closer look

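LURAP1L was singled out because its response to residual medium differed between the lines. The change from untreated to residual medium was -1.27 on the log2(FPKM + 1) scale in HPNE and -0.13 in HPDE, whose residual libraries also entered the choice of members. The HPNE change minus the HPDE change was -1.14 (SE 0.29, limma adjusted p = 0.00499), and all 3 HPNE residual libraries were below all 3 untreated ones. In that fit 38.1% of the 12377 genes passed the threshold. Adding 1 shrinks changes more at the low HPDE level, and the ratios of mean FPKM were 0.424 in HPNE and 0.859 in HPDE. Groups of 3 libraries were not searched for outlying values.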

How the results depend on the processing

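No member's call was lost in any alternative that could be fitted. Calls were gained in HPNE as follows. Those of DHRS2 come from fits that kept the minimum level, which DHRS2 met only through its vesicle libraries. With a pseudocount of 0.1, DHRS2 with PANC-1 vesicles was 2.55 higher than in residual medium and 2.67 higher than untreated. With fits of 6 libraries, LURAP1L passed against untreated cells at 0.52 with PANC-1 and 0.59 with PPCL-68 vesicles. Without the 4 libraries apart, DHRS2 with PANC-1 vesicles passed at 1.18 (residual) and 1.24 (untreated), LURAP1L against untreated cells at 0.41 (PANC-1) and 0.31 (PPCL-68), and PANC-1 minus PPCL-68 passed at -1.22 for DHRS2 and -0.55 for UPP1. That setting narrows the spread by construction, since it drops the farthest library of each group. Differences that were not called changed sign for DHRS2 in residual medium against untreated HPNE cells with voom (-0.23), and, without the 4 libraries, for UPP1 in that comparison (-0.018) and for LURAP1L between the vesicle sources (0.11). The cause of these changes was not tested.

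Leaving out 1 library at a time gave -0.025 to 0.046 for DHRS2 and -0.013 to 0.25 for UPP1 in residual medium against untreated HPNE cells. PANC-1 minus PPCL-68 ranged from -0.19 to 0.092 for LURAP1L, from -1.59 to -0.68 for DHRS2 and from -0.65 to -0.44 for UPP1, the last 2 passing only without PPCL-68 replicate 1. DHRS2 with PANC-1 vesicles against untreated cells ranged from 0.63 to 1.22, passing only without PANC-1 replicate 1 (limma adjusted p = 0.0469). All these DHRS2 fits in HPNE kept the minimum level, which it met only through its vesicle libraries. Without PPCL-68 replicate 2 or 3, DHRS2 in HPNE could not be fitted with PPCL-68 vesicles, since its mean fell under the filter. All 105 alternatives for the HPDE ratios stayed within 1 SD, but 90 of them left out 1 library. Dropping 1 of 3 values moves a group mean by less than 1 SD, so those 90 are no check of these values.

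Counts of listed genes moved more. For PANC-1 vesicles against residual medium in HPNE, 17 genes became 8 without the filter, 7 with 6 libraries, 41 without the 4 libraries apart (added after seeing the data) and 7 to 26 without 1 library, of which residual replicate 3 gave 26. For PPCL-68 vesicles 31 became 54 without the 4 libraries and 20 to 38 without 1. For residual medium against untreated cells, 36 became 16 to 41 without 1 library in HPNE, and in HPDE 18 became 10 without the filter and 11 to 16 without 1. With the replicate block no member's call changed: LURAP1L against residual medium had a limma adjusted p of 0.00412 (PANC-1) and 0.00149 (PPCL-68), UPP1 0.00604 and 0.000398, DHRS2 0.0910 and 0.00286, and UPP1 in HPDE residual medium 0.00131. The block fit kept the minimum level, which DHRS2 met in HPNE only through its vesicle libraries. Outside the HPNE vesicle groups the numbers did not pair the libraries (mean r from -0.43 to 0.21). Depth limits DHRS2 in HPNE controls, which rest on 13 and 21 reads per group.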
